A study of Mus musculus with 8 samples.

Results

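The glucocorticoid receptor (GR, encoded by Nr3c1) was mapped on chromatin by ChIP-seq in mouse liver, and the binding sites of corticosterone-treated mice (CORT) were set against those of control mice (ctrl.). The comparison took the 2 CORT libraries, labelled NR+CORT, and the 2 control libraries, labelled NR, out of the 6 GR libraries of the study. Peaks of these 4 lists that shared at least 1 bp were merged into 50200 sites, against 51431 sites when the 2 calorically restricted (cal. res., labelled CR) GR lists were merged in as well. The sites were then sorted by the lists that held a peak there. A peak in both CORT lists and in neither control list was found at 2207 sites (CORT-only sites), a peak in both control lists and in neither CORT list at 147 sites (control-only sites), and a peak in all 4 lists at 9942 sites (shared sites).

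All livers came from C57BL/6J mice on regular chow that had food only at night, and the labels give no other allele for either group. Per the methods of the study the mice were adult males, the control animals were held on night-restricted feeding for the last week, and the CORT animals were injected intraperitoneally with corticosterone in an ethanol and oil vehicle each day for a week, shortly before lights off. The study reports GR ChIP on livers taken at lights off, its time of peak corticosterone. Its diet protocol, with the control animals, and its corticosterone protocol began at the same age, but the former ran several weeks longer. The CORT animals were adapted to handling before the injections. Ages per library are not given. The labels do not say whether the NR control animals were given the vehicle. The methods describe 2 biological replicates and do not say how many animals went into a library. An identification code in the labels followed 1 style for control replicate 1 and both CORT libraries and another for control replicate 2 and the cal. res. libraries. The labels do not say what the style marks, so within the first style only control replicate 1 can be set against CORT. Replicates are named by number, and each value below is given for control replicate 1, control replicate 2, CORT replicate 1 and CORT replicate 2 in that order.

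GR is a nuclear receptor that stays in the cytosol until a glucocorticoid binds it, then enters the nucleus and sits on DNA, either directly at glucocorticoid response elements (GREs) or together with other factors. A GRE is built of a pair of inverted hexamers, written here as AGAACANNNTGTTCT, and a single hexamer, AGAACA, is the shortest element searched. Corticosterone is the main glucocorticoid of rodents and peaks each day before the active phase. In the liver GR drives gluconeogenesis and amino acid breakdown, acts with STAT and C/EBP factors on acute phase genes, and induces Fkbp5, Per1 and Tsc22d3.

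Each list gives a peak's fold enrichment over local background, which can be compared only within a list, so a site was described by its percentile. This is its rank by fold enrichment, from low to high, in percent of the regions of that list, with equal values sharing their mean rank, and where a site held several regions of a list the highest was taken. A percentile of 99 thus marks a site among the strongest of that library. The lists held 41400, 13667, 33451 and 48060 peaks in 36234, 12458, 29473 and 39136 distinct regions. The short list of control replicate 2 sets how many sites can be shared, so each comparison was repeated with the 12458 regions of smallest p-value from each list (equal-number lists). Equal length is not equal strictness, since control replicate 2 enters these lists whole. The median −log10 p-value there was 23.7, 8.09, 21.8 and 31.1. Read totals were not analysed here, and a longer list can come from deeper sequencing, better enrichment or more binding, which cannot be told apart in these files.

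The sequences under the strongest exclusive sites are shown first, as 200 bases of GRCm38 (mm10) centred on the summit, plus strand. Capitals mark AGAACA on either strand and any stretch that matches the GRE palindrome on either strand with at most 1 mismatch. The first 3 are the highest-ranked CORT-only sites whose window overlaps no exon of the GENCODE basic set, at chr14:8309788-8309987 in the promoter of Fam107a, chr6:88062495-88062694 upstream of Rab7 and chr16:93912919-93913118 near Cldn14, and the fourth, picked after its values were seen, is the intronic Fkbp5 site at chr17:28498238-28498437.
Fam107a site: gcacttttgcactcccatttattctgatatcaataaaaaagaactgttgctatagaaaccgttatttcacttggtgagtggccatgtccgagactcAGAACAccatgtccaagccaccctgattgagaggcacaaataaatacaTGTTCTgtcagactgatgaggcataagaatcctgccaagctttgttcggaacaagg
Rab7 site: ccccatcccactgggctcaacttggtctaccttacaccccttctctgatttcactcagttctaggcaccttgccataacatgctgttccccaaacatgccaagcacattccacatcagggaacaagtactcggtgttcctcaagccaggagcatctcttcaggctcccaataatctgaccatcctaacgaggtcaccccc
Cldn14 site: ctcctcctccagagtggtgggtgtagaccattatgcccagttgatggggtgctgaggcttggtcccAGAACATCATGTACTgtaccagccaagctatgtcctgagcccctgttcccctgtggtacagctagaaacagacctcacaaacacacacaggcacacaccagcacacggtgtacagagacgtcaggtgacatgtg
Fkbp5 site: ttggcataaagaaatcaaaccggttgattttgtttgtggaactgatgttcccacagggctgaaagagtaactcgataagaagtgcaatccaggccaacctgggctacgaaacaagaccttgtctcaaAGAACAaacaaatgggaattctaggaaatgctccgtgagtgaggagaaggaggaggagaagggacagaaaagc
The Fam107a window held 2 separate hexamers, the Cldn14 window 1 hexamer and 1 palindrome with at most 1 mismatch, the Fkbp5 window 1 hexamer and the Rab7 window neither.

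The next 3 are control-only sites among the 10 highest whose window overlaps no such exon, at chr3:98677837-98678036 inside Zfp697, chr2:52372496-52372695 in an intron of Neb and chr8:105056138-105056337 in an intron of Ces3a. They are followed by the highest shared site, at chr2:167844635-167844834, which lies 89.0 kb from the nearest protein-coding start, that of Ptpn1. None of these 4 windows held the hexamer or the palindrome.
Zfp697 site: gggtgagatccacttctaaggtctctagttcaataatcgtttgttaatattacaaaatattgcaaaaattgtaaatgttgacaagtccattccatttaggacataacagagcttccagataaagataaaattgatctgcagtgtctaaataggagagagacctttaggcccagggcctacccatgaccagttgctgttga
Neb site: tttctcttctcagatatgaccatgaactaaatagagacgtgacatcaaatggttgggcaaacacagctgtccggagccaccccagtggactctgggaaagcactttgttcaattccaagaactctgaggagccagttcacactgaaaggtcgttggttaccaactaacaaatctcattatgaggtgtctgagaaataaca
Ces3a site: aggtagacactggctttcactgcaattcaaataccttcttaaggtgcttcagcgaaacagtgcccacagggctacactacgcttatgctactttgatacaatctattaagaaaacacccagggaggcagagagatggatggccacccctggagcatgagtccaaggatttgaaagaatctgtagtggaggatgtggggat
Shared site near Ptpn1: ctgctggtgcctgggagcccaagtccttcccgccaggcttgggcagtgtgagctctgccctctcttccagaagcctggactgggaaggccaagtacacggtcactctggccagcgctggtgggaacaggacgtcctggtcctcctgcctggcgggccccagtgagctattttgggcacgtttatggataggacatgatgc

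The last 3 were picked after their values were seen, because each carries a GRE. They are a CORT-only site in an intron of Ctso near Tdo2 (chr3:81938954-81939153), a shared site near Ogfrl1 (chr1:23320885-23321084) and a site near Slc25a13 (chr6:6242169-6242368) held by control replicate 1 and both CORT lists.
Ctso intron site: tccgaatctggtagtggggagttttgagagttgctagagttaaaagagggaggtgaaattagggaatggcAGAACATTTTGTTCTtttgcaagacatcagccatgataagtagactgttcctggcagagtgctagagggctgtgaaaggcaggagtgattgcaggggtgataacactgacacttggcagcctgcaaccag
Ogfrl1 site: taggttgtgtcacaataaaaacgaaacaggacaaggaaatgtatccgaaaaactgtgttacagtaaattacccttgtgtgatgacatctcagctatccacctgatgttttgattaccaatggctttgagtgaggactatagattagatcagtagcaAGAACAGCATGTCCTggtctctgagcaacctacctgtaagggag
Slc25a13 site: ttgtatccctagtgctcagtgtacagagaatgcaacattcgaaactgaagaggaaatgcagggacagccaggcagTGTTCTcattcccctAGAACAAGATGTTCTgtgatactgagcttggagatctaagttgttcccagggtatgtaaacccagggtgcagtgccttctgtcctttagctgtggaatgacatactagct
The Ctso and Slc25a13 windows each held 1 exact palindrome, and the Ogfrl1 window 1 with at most 1 mismatch.

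The first question was where GR was found with corticosterone and not without it. CORT-only sites made up 4.4% of the 50200 sites and control-only sites 0.293%. With equal-number lists, 19504 sites remained, of which 945 (4.85%) were CORT-only, 571 (2.93%) were control-only and 5784 were shared. The CORT-only class was thus larger than the control-only class in both forms, and the gap narrowed from 2207 against 147 to 945 against 571. Pairs of 1 control and 1 CORT list also had sites of their own. Control replicate 1 had 1483 with CORT replicate 1 and 5369 with CORT replicate 2, the latter above the CORT-only count. Control replicate 2 had 58 and 96. With equal-number lists these counts were 468, 776, 580 and 448, a range that includes the control-only count. The class counts moved with the library left out, since 1 library then stands for its group. Leaving out control replicate 1 gave 12488 CORT-only sites, control replicate 2 gave 2382, CORT replicate 1 gave 11854 and CORT replicate 2 gave 5823, and control-only sites then numbered 341, 6950, 587 and 650 in the same order. The CORT lists held 1.69 times as many peaks as the control lists (geometric means), a difference that did not exceed the spread between replicates (two-sided exact permutation test over 4 libraries, p = 0.667, the smallest possible being 0.333). The ratio was 2.93 without control replicate 1 and 0.968 without control replicate 2.

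**Figure D1:**
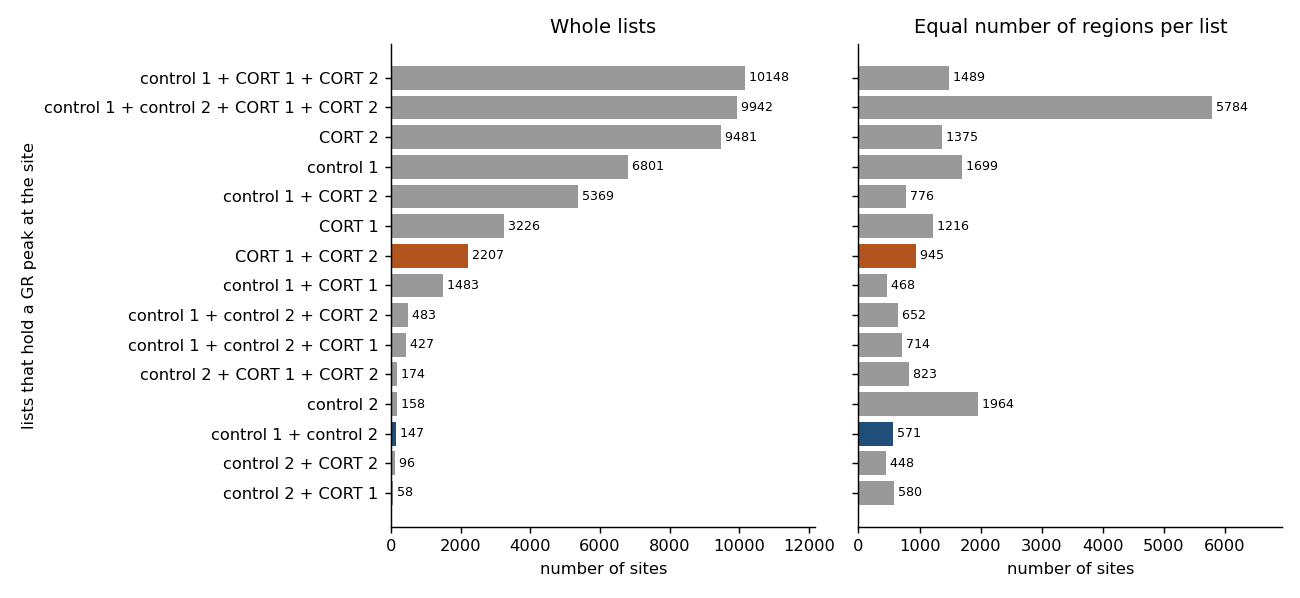
Number of merged GR sites (x axis) by the set of lists that hold a peak there (y axis), for the whole lists (left) and with 12458 regions from each list (right). CORT-only sites are orange and control-only sites dark blue. The most frequent set in the whole lists, 10148 sites, is a peak in every list but control replicate 2, and in the equal-number lists it is a peak in all 4.

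Many sites lacked a peak in control replicate 2 alone or had a peak in 1 list alone. A peak in control replicate 1 and both CORT lists, with none in control replicate 2, was found at 10148 sites, slightly more than the 9942 shared sites. Sites of CORT replicate 2 alone numbered 9481, of control replicate 1 alone 6801, of CORT replicate 1 alone 3226 and of control replicate 2 alone 158. With equal-number lists control replicate 2 held the most sites of its own, 1964, against 1699, 1216 and 1375 for control replicate 1, CORT replicate 1 and CORT replicate 2.

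CORT-only sites were weaker than shared sites within each CORT list. Their median percentiles were 29.9 in CORT replicate 1 and 40.1 in CORT replicate 2, against 78.0 and 83.7 for shared sites. A small set reached the top of the lists: 286 of the 2207 CORT-only sites (13.0%) lay above the 50th percentile in both CORT lists, 42 (1.9%) above the 75th and 11 (0.498%) above the 90th. Of the 147 control-only sites, 10 lay above the 50th percentile in both control lists, 1 above the 75th and 0 above the 90th. With equal-number lists the same 3 counts were 164, 42 and 9 of 945 CORT-only sites, and 47, 4 and 0 of 571 control-only sites. CORT-only sites thus reached higher ranks than control-only sites did, in the whole lists and in lists of equal length. In the latter control replicate 2 still held its weakest peaks, so a rank in it is not like a rank in the shortened lists. These counts need a high percentile in both lists of a group. Percentiles at shared sites correlated at 0.562 between the control lists and 0.713 between the CORT lists (Spearman). With equal-number lists the values were 0.55 and 0.679, and their part in the counts was not tested.

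The 10 highest CORT-only sites had percentiles between 90.4 and 99.7 in the 2 CORT lists. The first lay 125 bp from the start of Fam107a, whose product binds actin and which is known as a glucocorticoid-induced gene (chr14:8309375-8310432, percentiles 99.7 and 98.9). The second lay 17.4 kb upstream of Rab7, a small GTPase of late endosomes and lysosomes (chr6:88062265-88063143, 98.5 and 99.4). The third lay 16.9 kb from a start of Cldn14, a tight junction claudin (chr16:93911972-93913286, 97.4 and 99.6). The fourth lay in an intron of Fkbp5, the co-chaperone that lowers the hormone affinity of GR and is among its best known targets (chr17:28497948-28498603, 94.6 and 98.4). These 4 sites had no peak in either control list, and all 4 were in the same class under each alternative that changed the peaks, libraries or chromosomes used, except that the Cldn14 and Fam107a sites, longer than 1000 bp, were left out when longer sites were dropped.

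Of the other 6, 3 lay more than 50 kb from a protein-coding start. A site 226 kb from the start of Gadd45g, a stress-response gene, had percentiles of 98.3 and 93.0. A site 98.6 kb upstream of Grik3, a glutamate receptor gene, had 94.3 and 96.6. A site 116 kb from the start of Gc, which encodes the vitamin D-binding protein made by hepatocytes, had 92.4 and 97.2. The nearest protein-coding genes of the remaining 3 were Scn2b, a sodium channel subunit (4.53 kb, with the start of Gm47596 at 398 bp, 91.5 and 97.2), Hapln2, a link protein of the extracellular matrix (3.3 kb, with the start of Gm19439 at 103 bp, 94.7 and 90.4), and Gfra1, a receptor of glial cell line-derived neurotrophic factor (intron, 93.7 and 90.6). Of the 10, 3 lay in promoters, defined as within 1 kb of any annotated transcription start, 5 were intergenic and 2 intronic. The hexamer was in 5 of the 10 windows, a peak of the FOXO1 list overlapped 2, and 6 also had a peak in both cal. res. lists. With equal-number lists the 10 highest again included the Fam107a, Rab7 and Cldn14 sites. Another Fkbp5 site, which was not CORT-only in the whole lists, took the place of the first Fkbp5 site in these 10. New among them were an intronic site of Ahr, the aryl hydrocarbon receptor (96.6 and 97.8), a site 5.54 kb from 2010003K11Rik (99.0 and 98.9) and the site chr7:46751118-46756005 at Saa2, an acute phase apolipoprotein (90.2 and 99.4). Those 3 had a lower-ranked peak in the whole list of control replicate 1.

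The 10 highest control-only sites had percentiles between 50.2 and 88.8 in the 2 control lists, below those of the 10 highest CORT-only sites in theirs. The first lay in an intron of Hcn3, a cation channel gene (chr3:89147014-89150209, 82.2 and 79.9). A site in an intron of Spink5, a protease inhibitor gene, had 58.7 and 88.8. A site inside Zfp697, 538 bp from the start of Gm12399 and 38.8 kb from that of the steroid dehydrogenase gene Hsd3b2, had 66.2 and 73.7. The promoter of Ccdc50 had 63.5 and 72.9, and that of Ehmt1, a histone methyltransferase gene, 64.0 and 61.1. Intronic sites of Neb (70.8 and 64.1), of the carboxylesterase gene Ces3a (55.7 and 71.8) and of Dock1, nearest to Fam196a (67.5 and 58.6), followed, with a site in an intron of Mipol1, 121 kb from the start of Foxa1, a pioneer factor of hepatocytes (66.2 and 57.5), and a site 59.7 kb from Shcbp1 (67.1 and 50.2). The hexamer was in 1 of these 10 windows, and 4 of the 10 were still control-only with equal-number lists, against 10 of the 10 highest CORT-only sites.

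**Figure D2:**
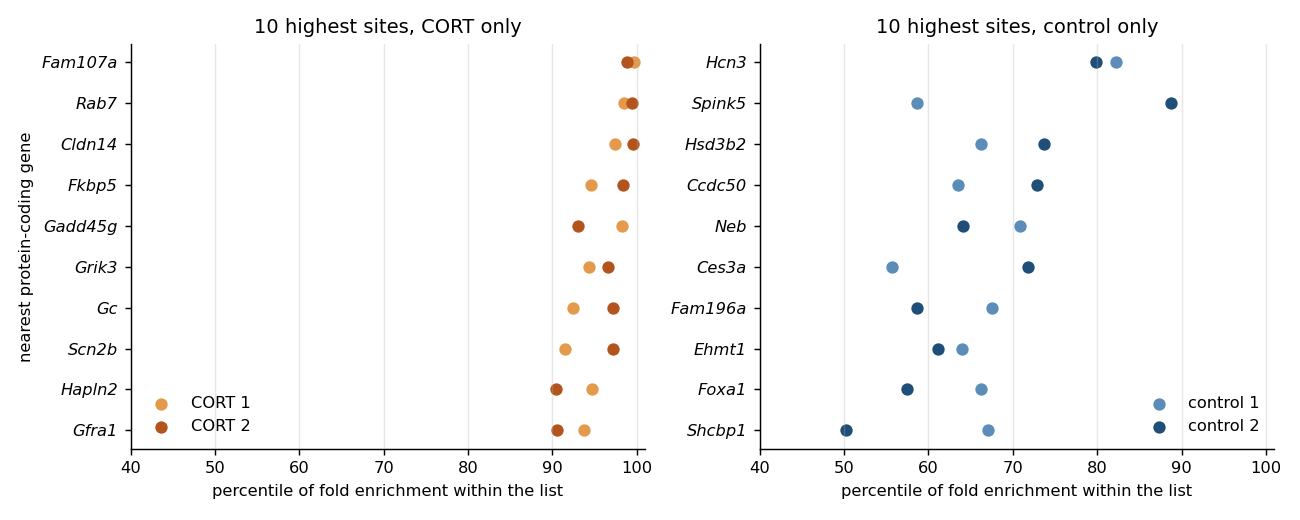
Percentile of fold enrichment within each list (x axis) of the 10 highest CORT-only sites (left, CORT replicates) and the 10 highest control-only sites (right, control replicates), named by the nearest protein-coding gene (y axis). Points are single lists. CORT-only sites lie between 90.4 and 99.7 and control-only sites between 50.2 and 88.8.

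The exclusive sites were next set beside the shared sites for features that the sorting did not use. CORT-only sites lay in promoters in 459 of 2207 cases (20.8%), against 43.2% of shared sites, 54.4% of the 147 control-only sites and 25.4% of all sites. With equal-number lists the promoter share of CORT-only sites was 41.3%, above the 38.2% of control-only, 35.8% of shared and 36.2% of all sites, so the order depended on list length. It was 33.8% with a promoter window of 3 kb and 38.6% at a q-value of at most 1e-05, where all sites had 31.6%. FOXO1 peaks, mapped in cal. res. livers, overlapped 4.17% of CORT-only sites, 6.8% of control-only sites and 43.5% of shared sites, and 13.9%, 24.0% and 59.1% with equal-number lists. Both exclusive classes had a lower FOXO1 share than the shared class in either form. So did every other set of lists, the highest being sites of control replicate 1 and both CORT lists, with 16.8% and, with equal-number lists, 38.6%. In the whole lists the median length was 520 bp for CORT-only, 511 bp for control-only and 1066 bp for shared sites, and its part was not tested. The FOXO1 share of CORT-only sites was 14.5% without control replicate 1, near the 15.7% of all sites there. It was 2.05% without CORT replicate 1 and 2.39% without the other CORT library, against 14.9% and 16.7% of all sites. At a q-value of at most 1e-05 it was 9.34%, against 22.9% of all sites. A GR peak in both cal. res. lists was present at 9.61% of CORT-only, 13.6% of control-only and 81.4% of shared sites, and at 27.5%, 30.3% and 83.6% with equal-number lists. No GR peak in either cal. res. list was found at 1563 CORT-only sites (70.8%), against 55.2% of all sites, and at 48.1% against 36.4% with equal-number lists. Over the 4 lists, the promoter share was 29.5%, 43.3%, 32.9% and 27.6%, a CORT minus control difference of -6.12 percentage points (exact permutation test, p = 0.667) that became 0.766 without control replicate 2.

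The hexamer AGAACA was found within 200 bp around the summit at 475 of 2206 CORT-only sites (21.5%), against 11.6% of control-only, 18.4% of shared and 18.3% of all sites. With equal-number lists these shares were 23.5%, 16.8%, 21.7% and 18.7%. CORT-only sites thus had the highest share of the 3 classes in both forms. Their exact 95% interval in the whole lists was 19.8% to 23.3%, and that of shared sites 17.6% to 19.2%. With equal-number lists the intervals were 20.8% to 26.4% and 20.6% to 22.8%. These intervals give counting error over sites only and do not measure the spread between libraries. The share was 18.3% without control replicate 1, 18.7% without CORT replicate 1 and 12.5% in windows of 100 bp, where all sites had 10.2%. The GRE palindrome with at most 1 mismatch was rare, at 31 CORT-only sites (1.41%), 0 of 147 control-only sites (exact 95% upper limit 2.48%, counting error only), 114 shared sites (1.15%) and 0.624% of all sites. With equal-number lists it was at 20 CORT-only (2.12%), 4 control-only (0.701%) and 95 shared sites (1.64%). Seen from the element, 31 of the 313 sites with such a palindrome (9.9%) were CORT-only, where 4.4% of all sites were. The share of hexamers was larger in higher bands of rank, and not only within the CORT-only class. At CORT-only sites, by the percentile in CORT replicate 2, it was 18.3% up to the 25th, 20.6% up to the 50th and 23.9% up to the 75th. Above the 75th it was 29.8%, at 45 of 151 sites. From the lowest to the highest of these bands, the hexamer share of shared sites also rose, from 7.94% to 21.0%. At sites of control replicate 1 and both CORT lists it rose from 14.7% to 20.1%. The rise with rank was thus not particular to CORT-only sites. At CORT-only sites the palindrome went from 3 of 611 to 4 of 820, 15 of 624 and 9 of 151 (5.96%) over these bands. It was at 106 of 6609 shared sites (1.6%) in the highest band. Mean GC content of the windows was 49.1% in CORT-only, 59.5% in control-only and 55.1% in shared sites, and its part in these shares was not tested. The hexamer share of the 4 lists, 17.6%, 17.9%, 17.8% and 18.3%, differed by 0.261 percentage points between CORT and control (exact permutation p = 0.667).

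The share of sites with the STAT motif TTCNNNGAA varied with the lists that held them. It was found at 14.1% of CORT-only sites, 5.44% of control-only, 9.32% of shared and 8.21% of all sites. Among sites of CORT replicate 1 alone the share was 19.3%, and among those of CORT replicate 2 alone 5.62%. It was 41.4% at the 58 sites of control replicate 2 and CORT replicate 1 and 29.9% at the 174 sites of control replicate 2 and both CORT lists. With control replicate 1 in place of control replicate 2, the same sets had 10.9% and 7.95%. With equal-number lists the sites of CORT replicate 1 alone had 29.6% and those of CORT replicate 2 alone 5.09%, and CORT-only sites had 10.1% against 9.83% of all sites. The share therefore differed more between sites of either CORT replicate alone than between CORT-only and all sites.

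**Figure D3:**
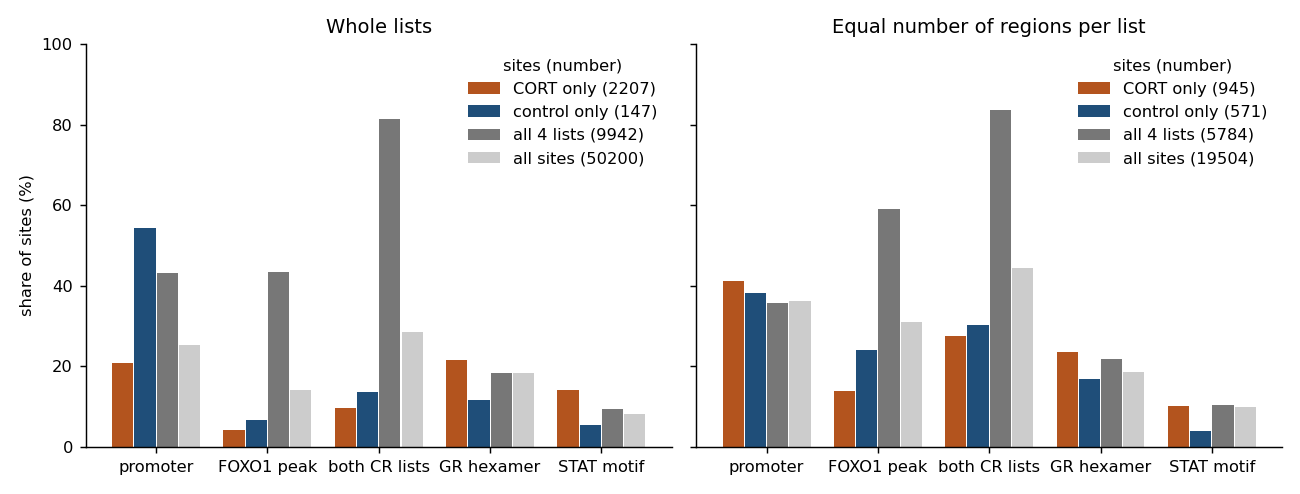
Share of sites in percent (y axis) with a promoter position, a FOXO1 peak, a GR peak in both cal. res. lists, the GR hexamer or the STAT motif (x axis), for CORT-only, control-only, shared and all sites, in the whole lists (left) and the equal-number lists (right). FOXO1 and cal. res. peaks are most frequent at shared sites in both panels, while the promoter share of CORT-only sites goes from 20.8% to 41.3%.

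CORT-only sites were counted within 50 kb of any start of the 21924 protein-coding genes, so that neighbouring genes share sites. At least 1 CORT-only site lay near 3425 genes (15.6%) and at least 1 control-only site near 270 (1.23%), and with equal-number lists near 2032 (9.27%) and 1013 (4.62%). The largest count of CORT-only sites was 9, at Arid5b, a DNA-binding regulator of metabolism, and at Mtus1, which encodes a microtubule-associated protein. Slc39a14, the zinc and iron importer ZIP14 of hepatocytes, its neighbour Ppp3cc, a calcineurin subunit, and Cyp2c70, the hydroxylase that makes muricholic acids in mice, had 8 each. Fkbp5, the interleukin 1 receptor gene Il1r1 and the metalloreductase gene Steap4 had 7 each, and Por, the electron donor of the microsomal cytochromes P450, and Pik3r1, the regulatory subunit of PI3-kinase, had 6 each. All 10 genes lay in regions dense in GR sites, with between 19 (Steap4) and 61 (Fkbp5) sites of any class, against a median of 3 over all genes. Together these 10 genes had 68 distinct CORT-only sites. Counted per gene the sum was 75, and it was 120 without control replicate 1, 211 without CORT replicate 1, 137 without CORT replicate 2 and 11 with equal-number lists. No gene had more than 2 control-only sites, and the 5 with 2 were Hsd3b2, Ces3a, Itgb2, Fam207a and Fbxo48.

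The largest count of sites around these genes in a single list was at Fkbp5. Its neighbourhood held 17 and 10 sites in the control lists and 24 and 60 in the CORT lists. With equal-number lists, which are part of the whole lists, it held 9 and 10 against 15 and 17. Both CORT lists thus lay above both control lists in either form, an order that the choice of Fkbp5 by its CORT-only sites favours. Of its 7 CORT-only sites, 3 stood high in both CORT lists. Besides the site shown above, these were intronic sites at chr17:28495561-28496320 (80.4 and 84.8) and chr17:28463041-28465020 (69.1 and 91.0), while the other 4 lay between 2.12 and 48.8. With equal-number lists Fkbp5 had 5 CORT-only sites. Among them was chr17:28423158-28425762 in an intron, with percentiles of 90.2 and 95.5 in those lists, which was not CORT-only in the whole lists.

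Around the other 9 genes the whole lists gave the same order, and the equal-number lists did not always. Site counts near Il1r1 were 7 and 4 in control and 14 and 36 in CORT, and 4 and 4 against 6 and 5 with equal-number lists. Near Pik3r1 they were 21 and 4 against 27 and 27, then 5 and 4 against 10 and 6. Near Cyp2c70 they were 7 and 3 against 25 and 20, then 4 and 3 against 8 and 5, and near Mtus1 15 and 6 against 22 and 35, then 4 and 6 against 10 and 8. Near Steap4 all 4 equal-number lists held 2 sites, and near Slc39a14, Arid5b, Ppp3cc and Por the 2 groups overlapped or tied. In all, 10 of these 10 genes had more sites in both CORT lists than in both control lists, which their choice by CORT-only sites favours, and 5 of 10 with equal-number lists. Among all protein-coding genes this held for 9.1%, and the reverse for 0.287%, and with equal-number lists for 5.78% and 3.33%.

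**Figure D4:**
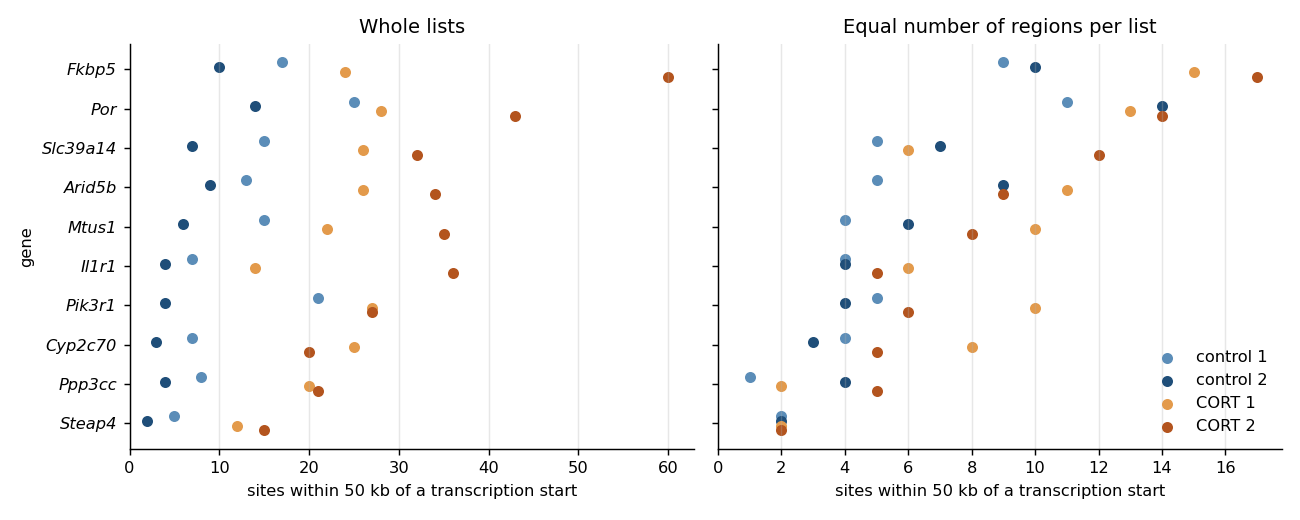
Number of GR sites within 50 kb of a transcription start (x axis) in each list for the 10 genes with the most CORT-only sites (y axis), in the whole lists (left) and the equal-number lists (right). Each point is 1 list. Fkbp5 stands apart with 60 sites in CORT replicate 2, and with equal-number lists both CORT lists still lie above both control lists for 5 of the 10 genes.

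Gene lists of hepatic GR biology were then counted, each list beside the value over all protein-coding genes. Among 18 classic GR targets and feedback genes, 11 (61.1%) had a CORT-only site within 50 kb, against 15.6% of all genes, and 8 (44.4%) did with equal-number lists, against 9.27%. The 18 genes lay in regions dense in GR sites, with a median of 16 sites per gene against 3 over all genes, and all 18 also had a shared site. More sites in both CORT lists than in both control lists were found for 10 of the 18, against 9.1% of all genes. With equal-number lists this held for 5, Fkbp5, Ddit4, Mt1, Mt2 and Angptl4, against 5.78%, and the reverse for 0. Ddit4 encodes an inhibitor of mTORC1 and had 9, 5, 10 and 13 sites in these lists. Mt1 and Mt2, neighbouring metallothionein genes, had 3, 3, 4 and 4, and Angptl4, an inhibitor of lipoprotein lipase, had 5, 4, 7 and 6.

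Other classic targets did not separate the groups with equal-number lists. Tsc22d3, which encodes GILZ, had 11, 6, 9 and 12 sites, and Per1, the clock gene with a strong hormone response, had 2, 2, 2 and 3. Tat, Klf9, Sgk1 and Nr3c1 held nearly the same number in all 4, with 7, 7, 7 and 8 for Tat and 2 in each list for the other 3. Single sites still differed in class. Tsc22d3 had 3 CORT-only sites in the equal-number lists and 0 in the whole lists. The highest of the 3 was at chrX:140511047-140512350 (74.9 and 71.8). Zbtb16, a glucocorticoid-induced zinc finger factor, had 1 with equal-number lists (73.2 and 72.0). Per1 had 1 CORT-only site and 1 control-only site, the latter with percentiles of 54.4 and 48.7 in the control lists. In the whole lists Hsd11b1, which regenerates active corticosterone, was the only gene of this list with a control-only site (12.9 and 11.8).

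The acute phase and complement list had 16 of 24 genes (66.7%) with a CORT-only site, and 11 (45.8%) with equal-number lists, against 15.6% and 9.27% of all genes. The median was 10 sites per gene of this list, against 3 over all genes. Neighbours made up much of this, since the 16 genes shared 14 distinct sites and the 11 shared 8. With equal-number lists 9 of 24 genes (37.5%) had more sites in both CORT lists than in both control lists, the highest share of the 13 gene lists, and 0 had fewer. These 9 were Saa1, Saa2 and Saa4, which lie together, Orm1, Orm2 and Orm3, which lie together, Lcn2, Itih3 and Cp. Orm1, an orosomucoid gene, had 5, 4, 7 and 7 sites, and 2 CORT-only sites with percentiles of 48.5 and 77.1 and of 77.2 and 84.4. In the whole lists it had 1 CORT-only site. Lcn2, which encodes a siderophore-binding protein, had 3, 4, 5 and 6 sites. Serpina3n, an acute phase protease inhibitor, had 3 CORT-only sites in the whole lists and 0 with equal-number lists.

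Of the 19 genes of gluconeogenesis and amino acid catabolism, 12 (63.2%) had a CORT-only site, and 4 (21.1%) with equal-number lists, against the same 15.6% and 9.27%, with a median of 17 sites per gene against 3. Tdo2, the tryptophan dioxygenase induced by glucocorticoids, had 4, of which the highest was the Ctso intron site with the exact palindrome (69.1 and 86.2). It had 9, 3, 12 and 22 sites in the whole lists and 2, 3, 5 and 6 in the equal-number lists. Pcx, pyruvate carboxylase, had 4 CORT-only sites, with percentiles between 27.2 and 81.1. Fbp1 was the other gene of this list with more sites in both CORT equal-number lists, while Hal, histidine ammonia-lyase, had 4 and 4 against 3 and 3. Pck1 had 1 CORT-only site with equal-number lists (26 and 17) and 0 in the whole lists.

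The STAT and cytokine list had 12 of 19 genes (63.2%) with a CORT-only site in the whole lists and 3 (15.8%) with equal-number lists, against 15.6% and 9.27% of all genes. Its median was 11 sites per gene, against 3 over all genes. Igf1, the growth hormone-dependent growth factor, had 4 CORT-only sites, none above the 50th percentile. Socs2 and Cish, feedback inhibitors of STAT5 signalling, had 2 each. The Socs2 promoter site had percentiles of 62.6 and 51.8 and an exonic one 84.5 and 51.8, and the Cish sites, both with a GRE of at most 1 mismatch, had 38.1 and 16.6, and 41.2 and 20.2. Among the 17 genes of insulin and FOXO signalling, with a median of 9 sites per gene, 6 (35.3%) had a CORT-only site and 3 (17.6%) with equal-number lists. Foxo3 had 3, the highest at chr10:42247431-42248758 (96.9 and 76.0).

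Of 19 clock genes 9 (47.4%) had a CORT-only site and 3 (15.8%) with equal-number lists, against 15.6% and 9.27% of all genes. The median was 9 sites per clock gene, against 3 over all genes. More sites in both CORT lists were found for 4 clock genes in the whole lists, Cry1, Clock, Rora and Nfil3 (21.1%, against 9.1% of all genes), and for 0 with equal-number lists, where Hlf had fewer. A CORT-only site was near 10 of 24 bile acid and cholesterol genes (41.7%) and 9 of 22 lipogenesis genes (40.9%), and near 6 (25%) and 6 (27.3%) with equal-number lists. These lists had medians of 12.5 and 15.5 sites per gene. For hepatocyte transcription factors, with a median of 16.5 sites per gene, the counts were 11 of 16 (68.8%) and 7 (43.8%). For fatty acid oxidation, with a median of 10, they were 4 of 18 (22.2%) and 3 (16.7%). For autophagy, with a median of 8, they were 4 of 19 (21.1%) and 1 (5.26%), the latter below the share of all genes. Within the fatty acid list, Cyp4a10 and its neighbour Cyp4a14, omega-hydroxylases under PPARα control, had 1, 2, 5 and 5 and 0, 1, 3 and 3 sites with equal-number lists, while Acadm had 3 and 4 against 2 and 2 and the hormone gene Fgf21 3 and 5 against 2 and 2. Cebpa, a hepatocyte regulator, had 2 control-only sites with equal-number lists, the higher 15.6 kb from its start (77.6 and 85.7). It had 0 control-only sites in the whole lists. All 10 hepatocyte marker genes had a shared site within 50 kb, against 7 of 15 markers of other liver cells and 46.0% of all genes, and 0 of those 15 had a CORT-only or control-only site.

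**Figure D5:**
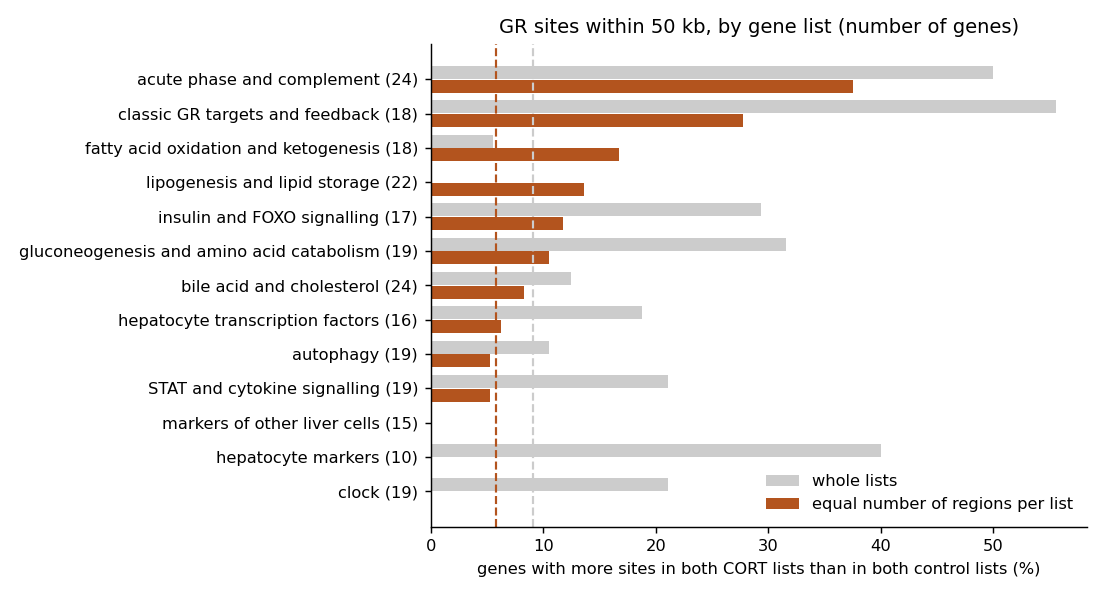
Share of genes in percent (x axis) with more GR sites within 50 kb in both CORT lists than in both control lists, for the 13 gene lists with their number of genes (y axis), in the whole lists (grey) and the equal-number lists (orange). Dashed lines give the value over all protein-coding genes, 9.1% and 5.78%. The acute phase list (37.5%) and the classic GR targets (27.8%) have the highest shares with equal-number lists.

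At sites held by all 4 lists the question was whether GR rank shifted with corticosterone. The median percentiles of the 9942 shared sites were 81.8 and 55.4 in control and 78.0 and 83.7 in CORT, so control replicate 2 stood apart from the other 3 libraries. Percentiles were turned into normal scores and compared with limma across the shared sites. No site passed a Benjamini-Hochberg adjusted p of 0.05 in either direction (0.0% higher and 0.0% lower, smallest adjusted p 0.952), while 432 sites had an unadjusted p under 0.05 with a higher score in CORT and 22 with a lower one. Both CORT percentiles lay above both control percentiles at 2700 shared sites (27.2%) and below at 568 (5.71%). With equal-number lists the median percentiles were 71.0, 69.3, 70.1 and 72.8, and the shares were 20.6% and 19%, so the surplus of higher sites was not seen there. Of the shared sites above in both CORT lists 57.6% lay in promoters, and of those below 39.1%, against 43.2% of all shared sites. With equal-number lists these shares were 52.5%, 22.7% and 35.8%. The order was thus the same in both forms, but promoter sites also differed between the control lists. With equal-number lists, the median percentile change of promoter sites was set against that of other shared sites. It was higher by 12.3 and 7.88 from control replicate 1 to CORT replicates 1 and 2. From control replicate 2 it was higher by 3.41 and 2.23, and from control replicate 1 to control replicate 2 by 5.82.

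The 5 shared sites with the smallest p and a higher score in CORT lay near Ube2u (in an intron of Ror1), Ogfrl1, Adh1 and Cox4i2 (in an intron of Bcl2l1) and on the mitochondrial genome. The Ror1 intron site had percentiles of 5.88, 6.27, 83.6 and 91.9, a score difference of 2.74 (SE 0.548, limma adjusted p = 0.952). The Ogfrl1 site, with a GRE, had 53.8, 39.4, 99.3 and 99.3. The site 16.6 kb upstream of the alcohol dehydrogenase gene Adh1 had 13.6, 0.345, 79.2 and 92.6, and the intronic site of Bcl2l1, which encodes the anti-apoptotic Bcl-xL, had 67.1, 45.5, 99.7 and 99.6. That the 2 groups did not overlap at these sites follows from choosing them by p. The 5 in the other direction were near the starts of Tmcc1 (67.5, 61.5, 15.2 and 8.23), Lifr, a receptor of the interleukin 6 family (63.3, 86.4, 31.2 and 9.36), Arhgdia (77.5, 80.9, 42.7 and 7.87) and Wrb (78.9, 85.7, 30.8 and 31.5), and in an intron of Cdk6 nearest to Fam133b (61.7, 31.9, 8.47 and 2.67). Their limma adjusted p was 0.952 as well.

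The fit depended on the control libraries. Without control replicate 1, 1585 sites passed, 1572 of them higher in CORT. Without control replicate 2, which leaves libraries of 1 code style and takes the lone control library to vary like the CORT pair, 20093 sites were held by the 3 lists, and 78 (0.388%) passed as higher and 5 (0.0249%) as lower in CORT. The 78 had a median percentile of 0.861 in control replicate 1, against 68.8 over all sites tested, and the hexamer was in 25.6% of their windows, against 18.1%. The smallest p was at the Slc25a13 site with the exact palindrome, 25 kb upstream of the gene of the mitochondrial aspartate-glutamate carrier, with percentiles of 0.428 in control replicate 1 and 94.3 and 99.0 in CORT (limma adjusted p = 5.59e-08). It was followed by an intronic site of Sdhb, a succinate dehydrogenase subunit (0.0152, 52.1 and 70.2), the promoter of 1810037I17Rik (0.0704, 94.4 and 48.2), the promoter of the Janus kinase gene Tyk2 (0.184, 71.6 and 85.6) and an intronic site of 1110059E24Rik (7.45, 99.0 and 98.2). The 5 lower sites were in introns of Cct8 (71.8, 2.66 and 0.432), Slc12a7 (84.1, 9.5 and 1.65), Ssbp3 (95.4, 16.1 and 15.0) and Lrrfip2 (55.0, 3.07 and 0.316) and in the promoter of Ranbp9 (64.8, 15.2 and 0.0281).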

How the data were processed

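GR peak lists of 4 mouse liver libraries were analysed, 2 CORT and 2 control, grouped by their titles. The 2 cal. res. GR lists and 1 FOXO1 list pooled by the authors from cal. res. libraries served as annotation. Per the study's methods and the labels, the authors aligned reads to mm10 with BWA, removed duplicates with Picard, and called peaks in each library with MACS2; use of an input control is not given in the sources used here. The deposited fold enrichment is a ratio over local background, and significance is deposited by the authors as −log10 p-value and −log10 q-value. Rows with the same interval were reduced to the highest summit. The reference was GRCm38, with genes from GENCODE M21 basic. Percentiles at shared sites were compared with limma 3.58.1 (R 4.3.3) on normal scores with Benjamini-Hochberg adjustment, and lists with exact permutation tests over libraries. Scripts, tested on simulated data, used Python 3.11.15, pandas 2.3.3, SciPy 1.17.1 and pysam 0.24.0. Each motif was sought on either strand of a 200 bp window centred on the summit from the library with the highest percentile. FOX, C/EBP, ETS, DR1 and AP-1 motifs were counted too and are not described.

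Named were the 10 CORT-only and 10 control-only sites of highest mean percentile, the 10 genes with most CORT-only sites, genes with at least 2 control-only sites, the 5 shared sites of smallest p in each direction, and members of 13 gene lists. Members and lists were chosen with earlier results of these data known. Alternatives were other q-value, fold and length limits, equal-number lists, 50% overlap, either library, other windows, a replicate block and leaving out each library. The p-values measure the spread between these libraries. Same-numbered libraries share only a number.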

Additional observations from a re-analysis of the deposited data

How the results depend on the processing

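Peak number limits what can be shared, and control replicate 2 held the fewest regions. CORT-only sites numbered between 2382 and 12488 when a library was left out, 945 with equal-number lists and 14914 when either library of a group was enough, against 2207. Control-only sites numbered between 341 and 6950 when a library was left out, 66 at a q-value of at most 1e-05, 571 with equal-number lists, 51 at a fold enrichment of at least 5 and 7106 with either library, against 147. Limma calls at shared sites numbered between 0 and 1585 when a library was left out and 11 with log2 fold enrichment, against 0, and 0 under the remaining alternatives. The log2 difference in peak number lay between -0.0462 and 1.55, and the difference in promoter share between -13.0 and 0.766 percentage points, when a library was left out, both reversed without control replicate 2. Where a library is left out, fewer libraries define a class; the cause of the other changes was not tested.

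With the replicate number as a block, limma made 0 calls at shared sites, and the paired differences were 0.753 for log2 peak number (exact sign permutation, p = 1), -6.12 for promoter share (p = 1) and 0.261 for hexamer share (p = 0.5, the smallest possible). Deviations of same-numbered libraries correlated at -0.108 across sites, and the crossed pairing, added after seeing the data, also made 0 calls. The sum of 75 CORT-only sites near the 10 genes with most fell to 11 with equal-number lists, 30 at a q-value of at most 1e-05 and 30 at a fold enrichment of at least 5.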
